A study of Mus musculus with 6 samples.

Results

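The genes described here are 10 transcription factor genes of tooth and bone cell fate: the distal-less homeobox genes Dlx1 to Dlx6, the muscle segment homeobox genes Msx1 and Msx2, the runt factor Runx2 and the zinc finger factor Sp7, also known as osterix. They were chosen by gene symbol from a table of 25703 genes, and all 10 were found and passed the filter on low counts, among 19613 genes tested. RNA was sequenced from the proximal end of the incisor of C57BL/6 mice aged 6 weeks, with 3 control libraries, of genotype Arid1a fl/fl, and 3 libraries of genotype Gli1-CreER;Arid1a fl/fl, called Arid1a cKO. Both alleles of Arid1a, a subunit gene of the SWI/SNF chromatin remodeller, were floxed in all 6 libraries, and the labels list the CreER allele for Arid1a cKO alone. The labels give the same tamoxifen protocol for both groups, with 1.5 mg per 10 g body weight injected daily on 3 days at 1 month of age. Gli1-CreER is active in cells that express Gli1, which in the incisor include mesenchymal stem cells, and a deletion passes to their descendants. The RNA came from the whole proximal tissue, so it may also hold cells outside that lineage, which would keep Arid1a. The labels do not tie libraries to animals, and the p-values therefore describe the spread among these 6 samples, part of which may be technical.

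DLX and MSX proteins bind DNA through a homeodomain and pattern the first branchial arch and its teeth. The Dlx genes lie in pairs, each pair transcribed towards each other from neighbouring positions. MSX proteins act mostly as repressors and are induced by BMP signals, and DLX proteins act mostly as activators on related sites. RUNX2 is needed to form osteoblasts and for early tooth development, SP7 acts after it, and both, with DLX3 and DLX5, act on genes of the mineralized matrix of bone and dentin. Several of these factors, Dlx3 and Msx2 among them, are also known from the ameloblasts of the dental epithelium, so the tissue holds more than 1 source of their RNA.

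The sequences below show how far Dlx4, a member that changed, differs from its chromosomal neighbour Dlx3, which bears on whether reads could be counted to the wrong gene. The homeobox, the 180 coding bases of the homeodomain, was taken from the GENCODE M21 transcripts (GRCm38, the mm10 build). Capitals mark the bases that differ between the pair.
Dlx4: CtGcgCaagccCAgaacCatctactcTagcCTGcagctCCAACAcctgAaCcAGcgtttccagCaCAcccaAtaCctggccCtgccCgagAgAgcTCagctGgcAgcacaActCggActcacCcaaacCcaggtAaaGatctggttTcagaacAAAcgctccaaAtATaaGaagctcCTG
Dlx3: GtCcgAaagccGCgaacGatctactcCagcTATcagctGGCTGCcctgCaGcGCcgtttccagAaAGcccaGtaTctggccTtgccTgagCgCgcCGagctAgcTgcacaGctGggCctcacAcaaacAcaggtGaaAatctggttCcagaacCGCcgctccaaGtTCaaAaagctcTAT

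Msx2 and Msx1 differed at 32 of the 180 bases (82.2% identical), the closest pair among the 8 homeobox members. Dlx4 and Dlx3 differed at 51 (71.7%), and the most distant pair, Dlx4 and Msx2, differed at 82 (54.4%). Over whole transcripts, the longest run of identical bases shared by any of the 45 pairs of members, on either strand, was 47, between Dlx6 and Msx2. Sequencing ran for 75 cycles, so no full-length read could match transcripts of 2 members without a mismatch.

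Short stretches before or after the start of the members with a promoter in the RefSeq table (GRCm38.p6) were searched for 3 motifs on both strands: TAATTA, a core of homeodomain sites, TGTGGT, a core of RUNX sites, and GGGCGG, the GC box. The table holds Dlx1, Dlx2, Msx1, Msx2 and Runx2, each from 250 bases before to 50 after the start. Of all 32851 promoters in it, 5.29% hold TAATTA, 16.8% TGTGGT and 35.7% GGGCGG. Msx2 held TAATTA at 187 bases before the RefSeq start, and the other 4 held none. Runx2 was the member that held TGTGGT, in 3 copies written here as the complement ACCACA, and the member with no GC box. The stretches with these matches are shown with the motif in capitals, because Msx2 is a member that fell and the Runx2 copies are matches to the family's own core.
Msx2, chr13:53472950-53472979, minus strand: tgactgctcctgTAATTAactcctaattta
Runx2, chr17:44814690-44814719, minus strand: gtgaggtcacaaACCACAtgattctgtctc
Runx2, chr17:44814584-44814613, minus strand: tcacaaacaACCACAgaACCACAagtgcgg

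The first Runx2 stretch covers bases -92 to -63 from the RefSeq start, and the second covers bases 15 to 44 after it. The spans given for Msx2 and Runx2 further on start, on the minus strand, at 53473074 and 44814797. All the stretches shown lie inside those spans, so by that annotation they are not upstream of the gene. A match is a description of letters and shows no binding.

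In Arid1a cKO, Msx2 and Dlx4 fell, no member rose, and 8 of the 10 did not pass the test. Genes were called where edgeR's quasi-likelihood test, adjusted by Benjamini-Hochberg across the whole table, gave a value under 0.05, as it did for 2.46% of genes in the lower and 1.5% in the higher direction. DESeq2 called the same 2 members lower and none higher, against 5.98% of all genes lower and 4.5% higher, and 3 of 10 members had an unadjusted edgeR p under 0.05, as did 4307 (22%) of all genes tested. Levels are given in CPM, counts relative to the library size after TMM scaling. The 2 calls among 10 members are 20%, above that background, and with 10 genes this is a description. The median log2 fold change was -0.19 over the members and 0.0043 over all genes tested, and 8 members had a negative and 2 a positive value. The groups did not overlap in 4 members, all lower in Arid1a cKO (Dlx3, Dlx4, Msx1 and Msx2), while 15.3% of all genes were lower and 13.8% higher without overlap. In bulk tissue, fewer cells of a type and less RNA per cell cannot be told apart.

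**Figure D1:**
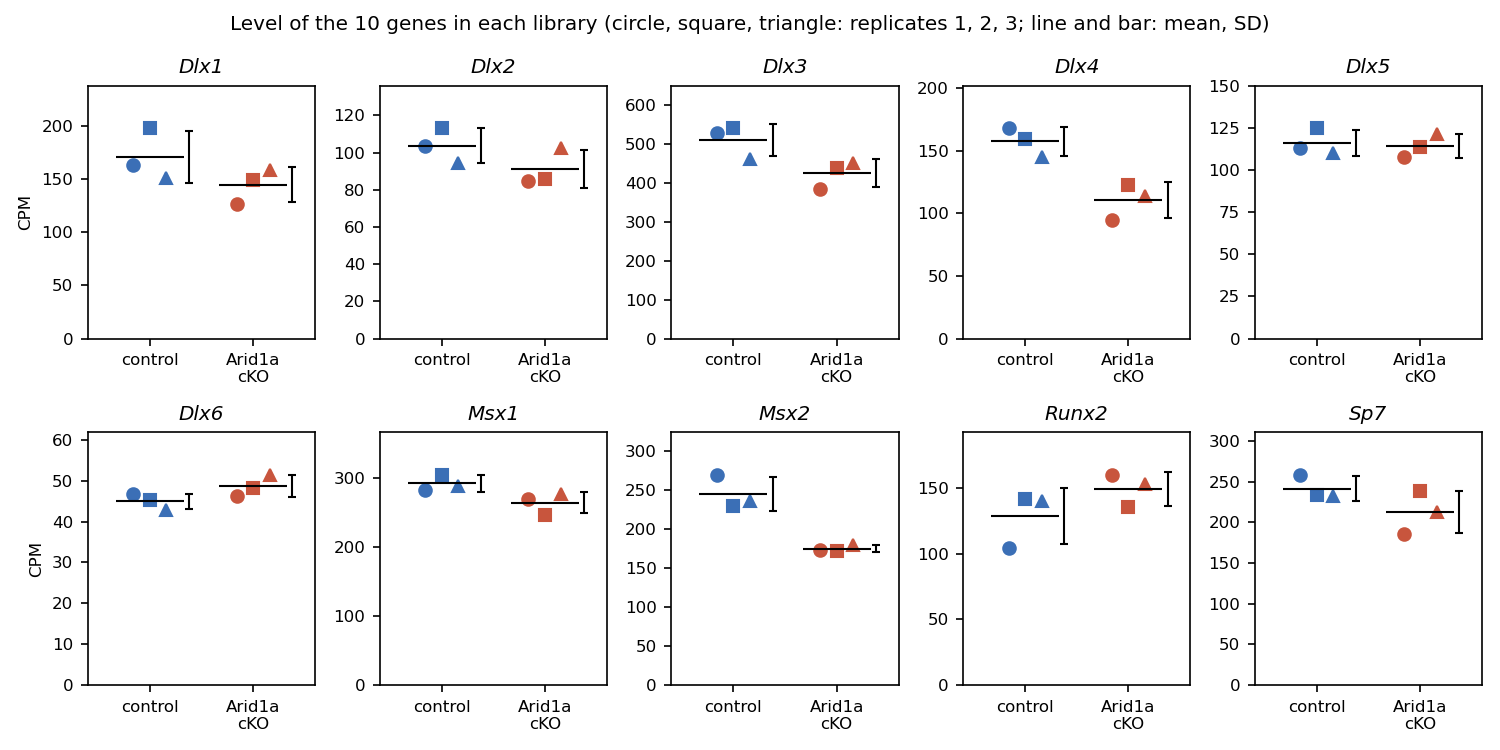
Level of each of the 10 genes in CPM (vertical axis from 0, each panel with its own scale) in the 3 control (blue) and 3 Arid1a cKO (red) libraries, with the mean as a line and the SD as a bar. All 3 Arid1a cKO points of Msx2 (172 to 180 CPM) and of Dlx4 (94.5 to 122 CPM) lie below all 3 control points.

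Msx2, a repressor of the homeobox class that responds to BMP signals (chromosome 13, 53466884 to 53473074 in mm10, minus strand), was lower in every Arid1a cKO library. Controls, in the order of replicates 1, 2 and 3 used throughout, measured 270.2, 229.7 and 237 CPM, and the Arid1a cKO libraries 173, 171.5 and 179.9 CPM. Control replicate 1 stood above the other controls, and the Arid1a cKO values lay close together. The mean fell 1.40-fold, from 245.5 ± 21.7 to 174.8 ± 4.49 CPM (SD, n = 3 each; log2 fold change -0.49, SE 0.0764, edgeR adjusted p = 0.0194). Msx2 no longer passed when control replicate 3 (edgeR adjusted p = 0.0596), Arid1a cKO replicate 2 (0.054) or Arid1a cKO replicate 3 (0.0667) was left out, at log2 fold changes from -0.51 to -0.48. Without control replicate 1, Msx2 passed narrowly with a smaller change (log2 fold change -0.41, edgeR adjusted p = 0.0496).

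Msx1, the close relative needed for teeth to pass the bud stage (chromosome 5, 37820485 to 37824583, minus strand), measured 281.5, 304 and 288.5 CPM in control and 269, 246 and 276 CPM in Arid1a cKO. The groups lay close without overlap in CPM, and overlapped on the TPM scale used further on, and the change did not pass (log2 fold change -0.14, SE 0.0719, edgeR adjusted p = 0.289). Within a library, the log2 ratio of Msx2 to Msx1 was -0.06, -0.41 and -0.29 in control and -0.64, -0.52 and -0.62 in Arid1a cKO. The ratio was thus lower in 3 of 3 Arid1a cKO libraries, by 0.34 on the log2 scale (two-sided exact permutation p = 0.1, which is the minimum for groups of 3, and 0.125 after adjustment over the 5 ratios computed). These 5 ratios were not among the planned comparisons. Those with Msx2, Dlx4 or Dlx6os1 contain the lower levels of these genes, so all 5 are a description.

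Dlx4, a little-studied member of the family (chromosome 11, 95140447 to 95146263, minus strand), was also lower in every Arid1a cKO library. Its level was 168, 159.5 and 145 CPM in control and 94.5, 122.5 and 114 CPM in Arid1a cKO, with replicate 1 the lowest of the latter. The mean fell 1.43-fold, from 158 ± 11.6 to 110.3 ± 14.3 CPM (SD, n = 3 each; log2 fold change -0.52, SE 0.103, edgeR adjusted p = 0.039). Dlx4 no longer passed when any of control replicates 1 (edgeR adjusted p = 0.125), 2 (0.107) and 3 (0.0736) or Arid1a cKO replicate 3 (0.11) was left out. Dlx4 shares 79 exon bases, 2.42% of its exon length, with Dlx4os on the opposite strand, and no source used here says whether the counting used strand. Dlx4os itself measured 83.1, 82.2 and 87 CPM in control and 69.4, 96.4 and 82.7 CPM in Arid1a cKO, with overlapping groups (log2 fold change -0.02, edgeR adjusted p = 0.936).

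Dlx3, a factor of odontoblasts, ameloblasts and hair (chromosome 11, 95120119 to 95125296, plus strand), lies 15.2 kb from Dlx4 and is transcribed towards it. It measured 527, 540.5 and 462 CPM in control and 384, 439 and 451 CPM in Arid1a cKO. The groups did not overlap, with control replicate 3 the nearest to Arid1a cKO, and the change did not pass (log2 fold change -0.26, SE 0.0965, edgeR adjusted p = 0.165). The log2 ratio of Dlx4 to Dlx3 within a library was -1.65, -1.76 and -1.67 in control and -2.02, -1.84 and -1.99 in Arid1a cKO. It was lower in 3 of 3 Arid1a cKO libraries by 0.26 on the log2 scale (exact two-sided permutation p = 0.1, and 0.125 adjusted over the 5 ratios).

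Dlx1 and Dlx2, which act early in the arch and in the first steps of tooth formation, lie 9.43 kb apart on chromosome 2 (71528113 to 71533981, plus strand, and 71543408 to 71546754, minus strand). Dlx1 measured 163, 198 and 150.5 CPM in control and 126.5, 149 and 159 CPM in Arid1a cKO (log2 fold change -0.24, SE 0.122, edgeR adjusted p = 0.305). Dlx2 measured 104, 113 and 94.4 CPM in control and 84.8, 85.7 and 103 CPM in Arid1a cKO (log2 fold change -0.19, SE 0.0973, edgeR adjusted p = 0.302). The 2 genes ordered the 6 libraries identically, from control replicate 2 at the top to Arid1a cKO replicate 1 at the bottom, with Arid1a cKO replicate 3 above control replicate 3 in both. The log2 ratio of Dlx1 to Dlx2 within a library differed by -0.04 between the groups, which overlapped (exact two-sided permutation p = 0.5, and 0.5 adjusted over the 5 ratios). Dlx1 shares 335 exon bases (6.21% of its exons) with Dlx1as on the opposite strand, which measured 20.2, 21.4 and 17.3 CPM in control and 13, 18.1 and 22.7 CPM in Arid1a cKO (log2 fold change -0.14, edgeR adjusted p = 0.742).

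Dlx5 and Dlx6, which specify the lower jaw, and of which Dlx5 acts on osteoblast genes, lie 9.24 kb apart on chromosome 6 (6877805 to 6882085, minus strand, and 6863334 to 6868568, plus strand). Dlx5 measured 113, 125 and 110.6 CPM in control and 108, 114 and 122 CPM in Arid1a cKO, with overlapping groups and means of 116 ± 7.75 and 114.5 ± 7.02 CPM (SD, n = 3 each; log2 fold change -0.02, SE 0.0725, edgeR adjusted p = 0.887). Dlx6 measured 46.6, 45.3 and 42.8 CPM in control and 46.2, 48.2 and 51.5 CPM in Arid1a cKO (log2 fold change 0.11, SE 0.0667, edgeR adjusted p = 0.36). The Dlx6 groups overlapped through control replicate 1 and Arid1a cKO replicate 1, and Dlx6 was the homeobox member with a positive value. Within a library, the log2 ratio of Dlx6 to Dlx5 was -1.28, -1.47 and -1.37 in control and -1.22, -1.24 and -1.24 in Arid1a cKO, higher in 3 of 3 libraries by 0.14 (exact two-sided permutation p = 0.1, and 0.125 adjusted over the 5 ratios).

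The antisense RNA Dlx6os1, also called Evf2 and known from the forebrain as an RNA that acts on its Dlx neighbours, is transcribed across Dlx6 on the opposite strand (chromosome 6, 6820189 to 6871633). It was lower in every Arid1a cKO library, with 233, 275 and 211 CPM in control and 109, 135 and 169.6 CPM in Arid1a cKO. The mean was 239.6 ± 32.6 CPM (SD, n = 3) against 138 ± 30.4 CPM (SD, n = 3), a 1.74-fold difference that missed the threshold (log2 fold change -0.80, SE 0.173, edgeR adjusted p = 0.0562). DESeq2 called it (adjusted p = 6.61e-05). Dlx6os1 and Dlx6 overlap in position but share 0 exon bases in GENCODE M21. The log2 ratio of Dlx6os1 to Dlx6 within a library was 2.319, 2.602 and 2.303 in control and 1.24, 1.49 and 1.72 in Arid1a cKO, lower in 3 of 3 libraries by 0.93 on the log2 scale (exact two-sided permutation p = 0.1, and 0.125 adjusted over the 5 ratios). Dlx6os2, a short transcript on the same strand, measured 4.84, 4.93 and 5.11 CPM in control and 2.96, 3.98 and 3.69 CPM in Arid1a cKO (log2 fold change -0.49, edgeR adjusted p = 0.127), and shares 104 exon bases with Dlx6.

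**Figure D2:**
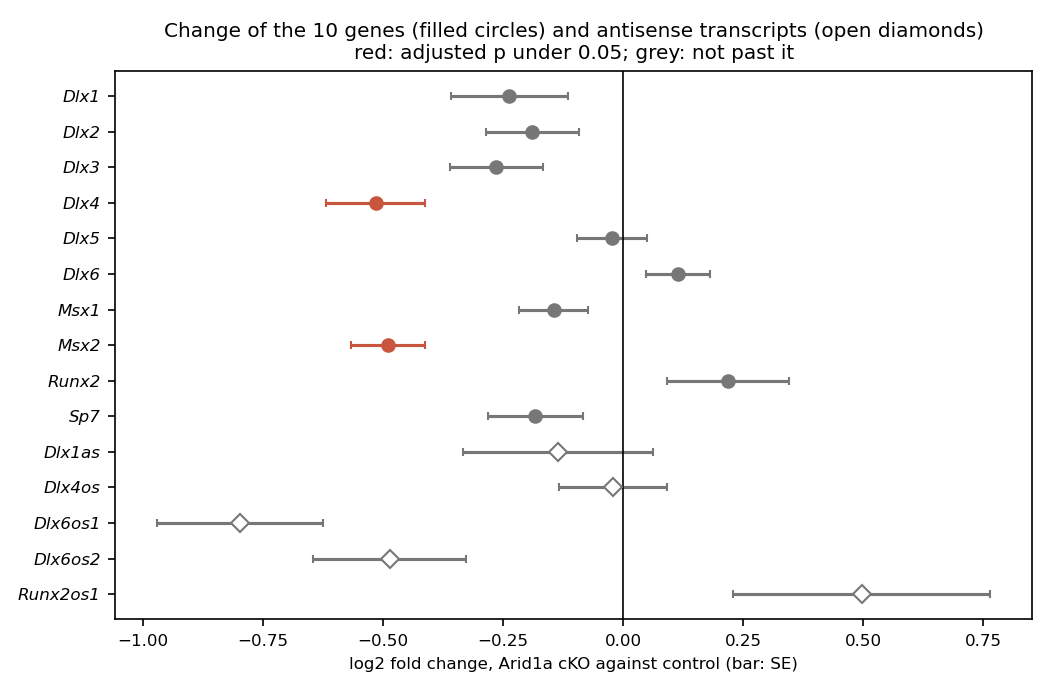
Log2 fold change of Arid1a cKO against control (horizontal axis, bar: SE) of the 10 genes, as filled circles, and of the 5 antisense transcripts tested, as open diamonds. Dlx4 (-0.52) and Msx2 (-0.49), in red, passed the threshold, and Dlx6os1 (-0.80) lies farthest to the left without passing it, while Dlx5 and Dlx6 lie near 0.

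Runx2, the factor that starts the osteoblast lineage (chromosome 17, 44495987 to 44814797, minus strand), was the member with the highest log2 fold change, which did not pass (0.22, SE 0.128, edgeR adjusted p = 0.362). It measured 104, 142 and 139.7 CPM in control and 160.1, 135 and 153 CPM in Arid1a cKO. Control replicate 1 stood apart at the bottom, and without it the log2 fold change was 0.09 (edgeR adjusted p = 0.617). The antisense transcript Runx2os1, which shares 519 exon bases (5.87%) with Runx2, measured 0.637, 0.906 and 1.06 CPM in control and 1.35, 1.22 and 1.09 CPM in Arid1a cKO (log2 fold change 0.50, edgeR adjusted p = 0.322). Runx2os2 and Runx2os3 had at most 17 and 3 counts in a library and were not tested.

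Sp7, which acts after Runx2 in osteoblasts and in odontoblasts (chromosome 15, 102356606 to 102367182, minus strand), measured 259, 233 and 232 CPM in control and 186, 239 and 213 CPM in Arid1a cKO. The groups overlapped through Arid1a cKO replicate 2, and the change did not pass (log2 fold change -0.18, SE 0.0993, edgeR adjusted p = 0.326). Runx2 and Sp7 thus had values of opposite sign, neither of them past the threshold.

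**Figure D3:**
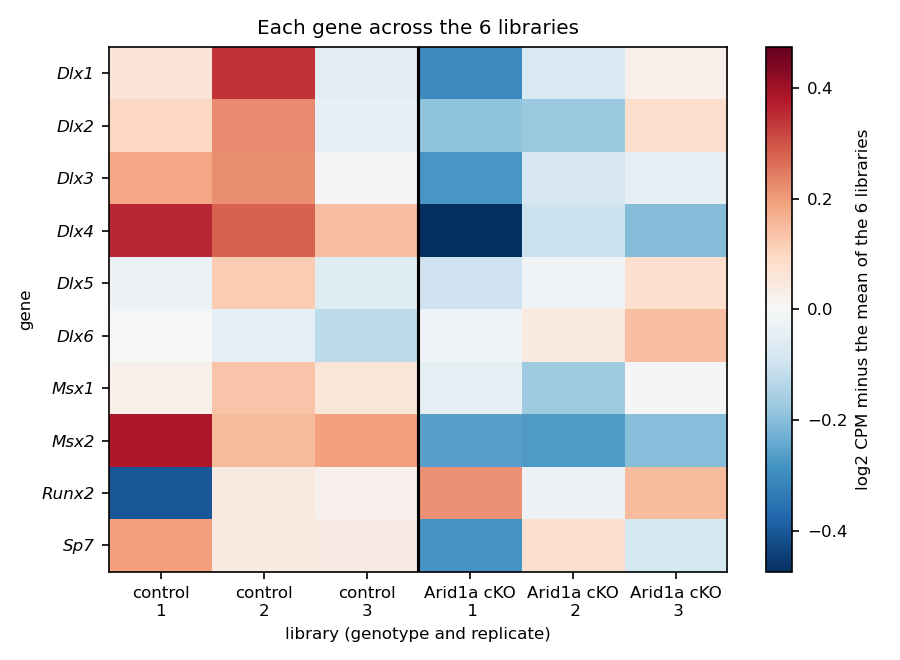
Log2 CPM of each gene (rows) in each library (columns, controls left of the line) minus the mean of the 6 libraries, in red above and blue below that mean. Arid1a cKO replicate 1 is the lowest library for 6 of the 10 genes and the highest for Runx2, and control replicate 1 is the lowest for Runx2.

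Across libraries, Arid1a cKO replicate 1 was the lowest of the 6 in 6 members (Dlx1 to Dlx5 and Sp7) and the highest in Runx2. Control replicate 2 was the highest in 5 members (Dlx1, Dlx2, Dlx3, Dlx5 and Msx1) and control replicate 1 in 3 (Dlx4, Msx2 and Sp7). Without Arid1a cKO replicate 1, the log2 fold changes of Msx2 (-0.48, edgeR adjusted p = 0.0359) and Dlx4 (-0.42, 0.0426) passed. Arid1a cKO replicate 1 and control replicate 3 differed from the other 4 libraries in sex-linked counts, with 2807 and 3894 CPM of Xist and 0.051 and 0.11 CPM summed over 4 Y-linked genes, against 195 to 235 CPM of the latter in the others. Within the 4 libraries with Y-linked counts, a choice made after seeing the data, Msx2 had a log2 fold change of -0.50 and Dlx4 of -0.46, neither past the threshold with 2 libraries a group (edgeR adjusted p = 0.0938 and 0.0646). Between the pair without Y-linked counts, Msx2 measured 237 CPM in control and 173 CPM in Arid1a cKO, and Dlx4 145 and 94.5 CPM, with no test for 1 library each.

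Compared per length, Dlx3 was the most abundant member and Runx2 the least. On the TPM scale, counts per kilobase of all exons of a gene scaled to the same sum in each library, Dlx3 stood at 558 ± 38.6 TPM (SD, n = 3) in control and 459 ± 38.4 TPM (SD, n = 3) in Arid1a cKO. In control it was followed by Msx1 (269 TPM), Msx2 (213 TPM), Sp7 (202.5 TPM), Dlx5 (147 TPM), Dlx4 (137 TPM), Dlx2 (104 TPM), Dlx1 (90.2 TPM), Dlx6 (53.9 TPM) and Runx2 (41.7 TPM). Neighbours in this order whose control libraries overlapped were Msx2 and Sp7, Dlx5 and Dlx4, and Dlx2 and Dlx1. In Arid1a cKO the order was the same except that Sp7 (176 TPM) stood above Msx2 (150.3 TPM), with overlapping libraries. Every member lay above 85.4% of the genes with a count in control, and Dlx3 above 99.2%. With the length of the longest coding transcript in place of all exons, 8 of 10 members kept their place in control, and Dlx5 and Sp7 exchanged theirs.

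**Figure D4:**
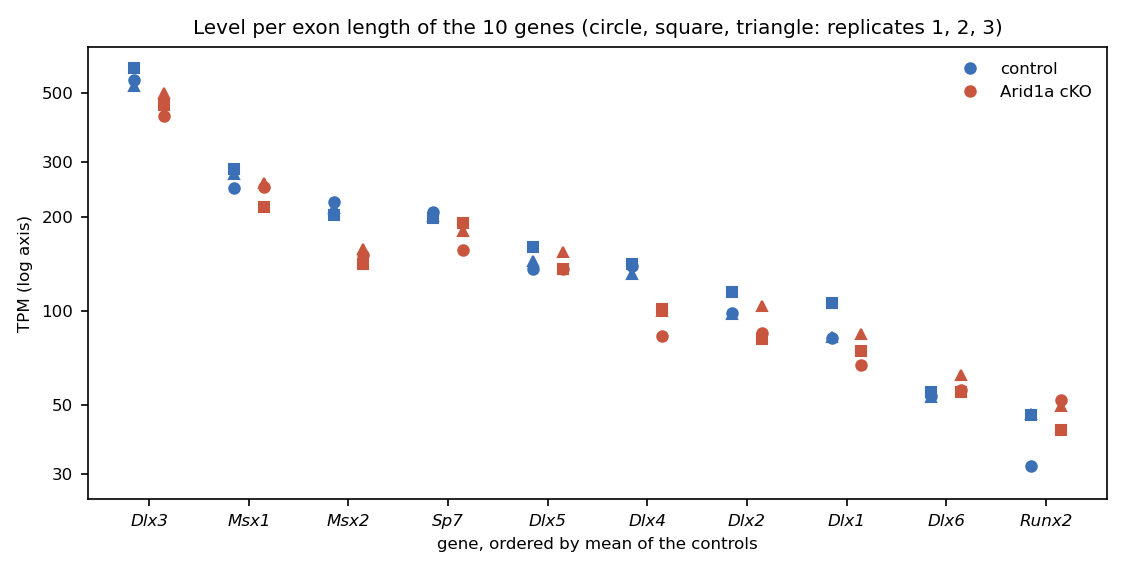
TPM of each gene (vertical log axis) in the 3 control (blue) and 3 Arid1a cKO (red) libraries, ordered by the control mean. Levels run from 558 TPM for Dlx3 to 41.7 TPM for Runx2 in control, and the red and blue points separate most for Msx2 and Dlx4.

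Genes that these factors are known to act on included 3 that fell. Of 23 tested target and matrix genes, 3 (13%) fell, 0 rose and 20 did not pass (median log2 fold change -0.15). Over all genes, 3.96% passed in either direction. DESeq2 called 6 of the 23 lower and 0 higher, against 5.98% and 4.5% of all genes. An unadjusted edgeR p under 0.05 was found for 7 (30.4%), against 22% of all genes. Without overlap of the groups, 5 were lower and 1 higher, against 15.3% and 13.8% of all genes tested. Vdr, the vitamin D receptor, measured 155, 154.6 and 128 CPM in control and 57.8, 80.01 and 76.6 CPM in Arid1a cKO (2.04-fold lower, edgeR adjusted p = 0.0162). Nes, an intermediate filament gene of odontoblasts, fell 1.81-fold (mean and SD of 3 libraries 507 ± 82.9 CPM in control and 279 ± 52.3 CPM in Arid1a cKO, edgeR adjusted p = 0.0359), and Alpl, the phosphatase of mineralization, fell 1.75-fold (mean and SD of 3 libraries 985 ± 204 CPM in control and 562 ± 57.2 CPM in Arid1a cKO, edgeR adjusted p = 0.0379). With each of the 6 libraries left out in turn, Vdr passed in 3 fits (without control replicate 3 and without Arid1a cKO replicate 1 or 2), Nes in 1 (without Arid1a cKO replicate 2) and Alpl in 1 (without control replicate 2). Alpl also did not pass with the dental epithelium markers described further on as a covariate (log2 fold change -0.80, edgeR adjusted p = 0.0648). Enpp1, which makes pyrophosphate and had the next smallest p, did not pass (log2 fold change 0.30, edgeR adjusted p = 0.114).

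Some genes of the matrix differed widely among controls. Dspp, which encodes the main non-collagen proteins of dentin and is a known target of RUNX2 and DLX3, measured 4122, 1260.2 and 4332 CPM in control and 4521, 3412 and 3820.2 CPM in Arid1a cKO (log2 fold change 0.27, edgeR adjusted p = 0.77). Bglap, the osteocalcin gene, measured 1683, 524 and 1117 CPM in control and 639, 850.2 and 742 CPM in Arid1a cKO (log2 fold change -0.57, edgeR adjusted p = 0.454), and shares reads with near-identical copies such as Bglap2. Col1a1, the type I collagen chain, measured 27872, 10627 and 21709 CPM in control and 19563, 17683 and 18319 CPM in Arid1a cKO (log2 fold change -0.12, edgeR adjusted p = 0.871). In all 3 of these genes control replicate 2 was the lowest of the 6 libraries. The 3 were named for their known tie to RUNX2 after their values were seen, and the SD of the members was at most 16.55% of the mean in either group.

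Partners and regulators of these factors gave no call. Of 29 genes, 0 passed in edgeR, with 10 (34.5%) at an unadjusted p under 0.05, against 22% of all genes. DESeq2 called 4 of the 29, all lower, where it called 5.98% of all genes lower. The log2 fold change was negative in 21 of the 29, with a median of -0.14. Without overlap of the groups, 11 were lower and 1 higher, against 15.3% and 13.8% of all genes tested. Cbfb, the partner that RUNX proteins need for stable binding to DNA, measured 224, 217 and 201 CPM in control and 149, 184 and 176 CPM in Arid1a cKO (log2 fold change -0.33, edgeR adjusted p = 0.0829). Wwp1, a ubiquitin ligase that can act on RUNX2, also did not pass (log2 fold change -0.25, edgeR adjusted p = 0.0907).

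Other homeobox genes of the tooth field included 3 that rose. Of 18 tested in edgeR, 3 rose, 0 fell and 15 did not pass, with 11 (61.1%) at an unadjusted p under 0.05, against 22% of all genes (median log2 fold change 0.12). Over all genes tested, edgeR called 1.5% higher and 2.46% lower. DESeq2 called 3 of these homeobox genes higher and 4 lower, against 4.5% and 5.98% of all genes. Shox2 measured 5.61, 8.23 and 7.6 CPM in control and 13.8, 13.1 and 13.9 CPM in Arid1a cKO (1.90-fold higher, edgeR adjusted p = 0.0202). Nkx2-3 rose 1.67-fold (mean and SD of 3 libraries 7.77 ± 0.801 CPM in control and 12.9 ± 1.13 CPM in Arid1a cKO, edgeR adjusted p = 0.0211), and Meis1 rose 1.84-fold (mean and SD of 3 libraries 3.8 ± 0.434 CPM in control and 7.01 ± 0.916 CPM in Arid1a cKO, edgeR adjusted p = 0.0288). These 3 stood at means of 3.8 to 7.77 CPM in control, under every member. Alx4 (log2 fold change -0.34, edgeR adjusted p = 0.0624) and Prrx2 (-0.46, 0.0642), factors of craniofacial mesenchyme, had the next smallest p and did not pass. The number that rose fell to 0 without control replicate 3 or without Arid1a cKO replicate 3, and to 1 without control replicate 1 or 2.

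In the BMP pathway, which induces Msx and Dlx genes, 3 of 25 genes fell and 0 rose (median log2 fold change -0.13). Over all genes tested, 2.46% fell and 1.5% rose in edgeR. DESeq2 called 7 of the 25 lower and 0 higher, against 5.98% and 4.5% of all genes. Nog, which encodes the BMP antagonist noggin, measured 13.3, 15.3 and 15.4 CPM in control and 7.65, 6.04 and 7.88 CPM in Arid1a cKO (2.04-fold lower, edgeR adjusted p = 0.0127). The ligand Bmp2 fell 1.52-fold (mean and SD of 3 libraries 248 ± 27.3 CPM in control and 164 ± 18 CPM in Arid1a cKO, edgeR adjusted p = 0.0294), and the receptor Bmpr2 fell 1.45-fold (mean and SD of 3 libraries 462 ± 29.6 CPM in control and 318 ± 45.1 CPM in Arid1a cKO, edgeR adjusted p = 0.0452). The intracellular mediator Smad9 (log2 fold change -0.40, edgeR adjusted p = 0.0582) and the target Id4 (-0.72, 0.0844) did not pass. Both were named because they had the next smallest p. The related genes Id1, Id2 and Id3 had log2 fold changes of 0.13, -0.04 and -0.01 and did not pass either. The log2 fold change was negative in 20 of the 25. Without overlap, 10 of the 25 were lower and 1 higher, against 15.3% and 13.8% of all genes tested. Bmpr2 passed in 12 of 21 alternative settings, and with all 6 libraries it did not pass under upper quartile scaling (edgeR adjusted p = 0.0518), with robust estimation off (0.0515) or in limma with a pseudocount of 5 (0.0509). The number past the threshold was 1 without each of control replicates 1, 2 and 3 and of Arid1a cKO replicates 2 and 3.

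**Figure D5:**
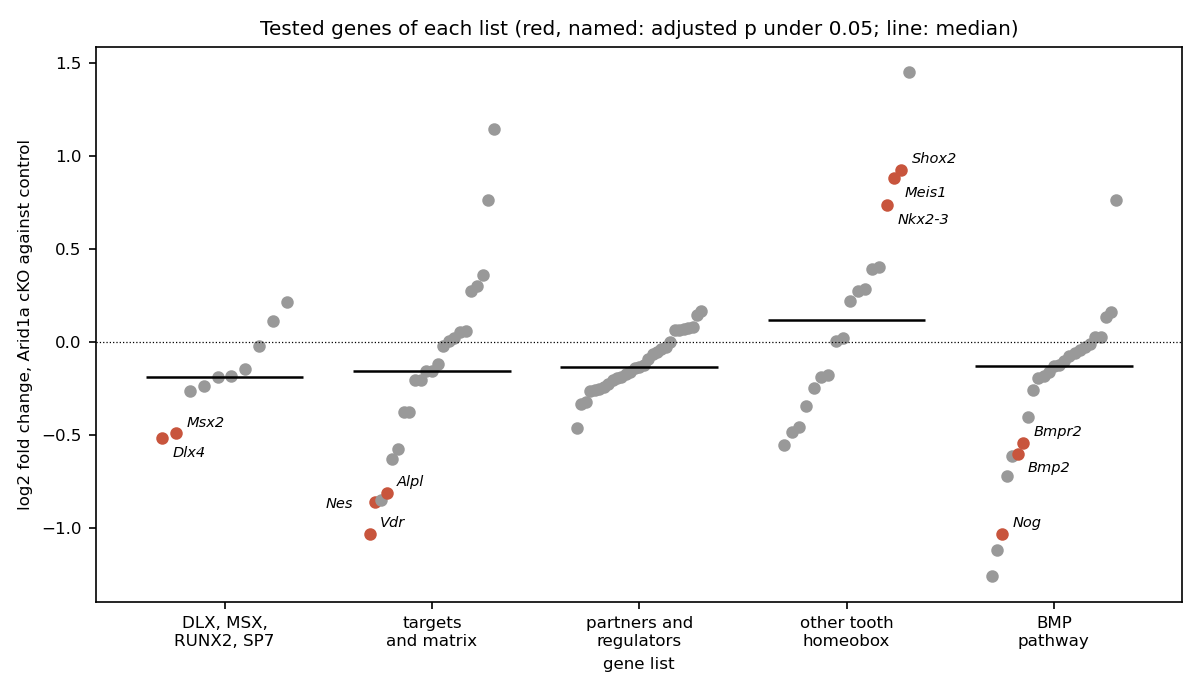
Log2 fold change of Arid1a cKO against control (vertical axis) for each tested gene of the 5 lists (horizontal axis), sorted within a list, with the median as a line. The called genes, in red with their names, lie below 0 in the lists of members, targets and BMP pathway and above 0 among the other homeobox genes, and no gene of the list of partners is red.

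Markers of other cells in the tissue were summed in each library. The 17 dental epithelium markers summed to 1573, 1649 and 5042 CPM in control and 3476, 1693 and 2447 CPM in Arid1a cKO, so the groups overlapped, and 1 of 17 passed, Epcam, which rose (mean and SD of 3 libraries 34 ± 0.315 CPM in control and 47.2 ± 4.05 CPM in Arid1a cKO, edgeR adjusted p = 0.0199). Of the 17, 12 had a positive log2 fold change (median 0.40), 3 were higher and 0 lower without overlap, 5 had an unadjusted p under 0.05, and DESeq2 called 4 higher and 0 lower. Over all genes tested, 13.8% were higher and 15.3% lower without overlap, and 22% had an unadjusted p under 0.05. The share of all genes called higher was 1.5% in edgeR and 4.5% in DESeq2. The enamel matrix genes Amelx (1914 CPM), Ambn (801 CPM) and Enam (824 CPM) made up most of the sum of control replicate 3. The keratin genes Krt5 (means of 251 CPM in control and 434 CPM in Arid1a cKO) and Krt14 (132 and 204 CPM) had higher means in Arid1a cKO and did not pass (edgeR adjusted p = 0.165 and 0.308), and all 5 genes were named after their values were seen. With the mean log2 level of these markers as a covariate, Msx2 (log2 fold change -0.47, edgeR adjusted p = 0.0314) and Dlx4 (-0.46, 0.0248) passed. The 5 Schwann cell markers summed to 21.6 to 85.03 CPM in control and 100.5 to 167 CPM in Arid1a cKO without overlap, and the 6 chondrocyte markers in the table to 257 to 313 CPM in control and 162 to 199.8 CPM in Arid1a cKO, also without overlap. No gene of either list passed in edgeR, with 1 Schwann cell and 5 chondrocyte markers at an unadjusted p under 0.05, and DESeq2 called 0 Schwann cell markers and 2 chondrocyte markers lower and 1 higher. The chondrocyte markers Matn1 and Ucma were not analysed here. Of the 6 chondrocyte markers in the table, 3 had a positive and 3 a negative log2 fold change, with 2 lower and 2 higher without overlap. Hapln1, with the highest mean of the 6 (209 CPM in control and 133 CPM in Arid1a cKO), was among the lower. All 5 Schwann cell markers had a positive log2 fold change, with 3 higher and 0 lower without overlap. The sums of 8 osteoblast and osteocyte markers (1383 to 3009.5 CPM in control, 1394 to 1716 in Arid1a cKO), 7 endothelial (397 to 470 and 377 to 597), 7 macrophage and osteoclast (302 to 401.5 and 349 to 544), 6 pericyte and smooth muscle (894 to 949 and 750.3 to 957) and 7 dental mesenchyme markers (15601 to 32718 and 21698 to 24082) overlapped between the groups. Among these, Sost (log2 fold change 1.54, edgeR adjusted p = 0.0156) and Myh11 (0.80, 0.0463) rose and Notch3 fell (-0.43, 0.0139). The endothelial, macrophage and mesenchyme lists had 0 genes past the threshold in edgeR and in DESeq2, with 1, 2 and 1 at an unadjusted edgeR p under 0.05. The mean level used as covariate for the epithelium, centred over the libraries, was highest in control replicate 3 (0.62) and Arid1a cKO replicate 1 (0.632). It therefore mostly followed differences within the groups, and the fit with it cannot decide the part of the epithelium. The part of any of these cell types in the changes of Msx2 and Dlx4 was not tested.

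Among the genes whose levels followed Msx2 most closely over the 6 libraries, by Pearson r of log2 CPM among 12999 genes with a mean of at least 5 CPM, were Tprgl (r = 0.996) and Plcxd2 (0.994). For Dlx4 they were Lamp2 (r = 0.999), Marcks (0.999) and Sptbn4 (0.998). With 6 libraries and the difference between the groups contained in each value, these coefficients are a description. Of these genes, Tprgl, Plcxd2 and Marcks were themselves called lower (edgeR adjusted p from 0.0272 to 0.0346), and Lamp2 (0.074) and Sptbn4 (0.0714) were not.

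As a check of the labels, Arid1a was lower in all 3 Arid1a cKO libraries (136 to 145 CPM against 221.7 to 248.8 CPM, 1.65-fold, edgeR adjusted p = 0.00802), and Gli1 fell 1.43-fold (edgeR adjusted p = 0.0162). No library carried Gli1-CreER without floxed Arid1a, so an effect of the CreER allele itself, on Gli1 or other genes, was not tested. Library totals ran from 27300932 to 37908478 estimated counts, and each member had at least 1172 counts in every library.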

How the data were processed

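Estimated counts per gene, not normalized, were deposited by the authors. A second deposited table holds normalized signal, which on testing equalled the count with 1 added, over 1 factor per library. STAR 2.6.1d and Partek, with build mm10, were named per the submitters' processing notes. For the annotation release, library kit and strand no source used here gives a statement. RNA integrity numbers were above 9, per the labels' protocols. Replicate numbers follow accession order and pair no samples.

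Counts were rounded, genes kept with filterByExpr (minimum count 10, leaving 19613), and genotypes compared with edgeR's quasi-likelihood test (robust, TMM factors 0.961 to 1.04, no covariate, two-sided). Benjamini-Hochberg adjustment covered every gene tested, at a threshold of 0.05. SE is the absolute log2 fold change over the square root of F. Exons, lengths and overlaps came from GENCODE M21, which held 97.5% of the gene symbols on the same chromosome and strand. Gene ends are the deposited stop minus 1. Software was Python 3.11.15 and R 4.3.3 with DESeq2 1.42.0, edgeR 4.0.16 and limma 3.58.1. The test was tried on simulated counts. Alternatives were other scalings, filters and tests, a covariate, and leaving out each library. The members and lists were chosen with earlier results of these data known. Named genes are the members, their antisense transcripts, up to 6 called and the next 2 genes of each list, and the genes most alike to 2 members. Results for some items that this rule names are not reported here.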

Additional observations from a re-analysis of the deposited data

How the results depend on the processing

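The number of members lower in Arid1a cKO was 2 under all 14 planned settings that keep every library. It ranged from 0 to 2 when a library was left out, and was 0 in the 4 libraries with Y-linked counts, an alternative chosen after seeing the data. No member was called higher under any of the 21 settings. All genes past the threshold numbered 777 in the reported fit, 1935 with DESeq2, 1247 with a sex-linked score as covariate, 177 in the 4 libraries with Y-linked counts, and from 160 to 532 with a library left out. With DESeq2 the calls were 6 of 23 targets, 4 of 29 partners and 7 of 25 BMP pathway genes, all lower. Of 18 other homeobox genes DESeq2 called 7, with 4 lower and 3 higher. DESeq2 called 5.98% of all genes lower and 4.5% higher. With the sex-linked score the calls were 3 among partners, 5 among other homeobox genes and 5 in the BMP pathway. In the 4 libraries with Y-linked counts they were 1 among targets, 0 among other homeobox genes and 1 in the BMP pathway. Leaving out a library gave 0 to 3 among targets, 0 to 4 among other homeobox genes and 1 to 3 in the BMP pathway. The cause of these moves was not tested, other than that fewer libraries enter some fits. Dlx5, near 0, changed sign with library size only (log2 fold change 0.00014), and ran from -0.057 to 0.046 with a library left out. With a library left out Dlx1as ran from -0.33 to 0.051 and Dlx4os from -0.15 to 0.091, and Dlx4os also changed sign with the epithelium score (0.0048) and in the 4 libraries (0.13). Dlx6os1 passed with DESeq2, with robust estimation off (adjusted p = 0.0477, edgeR) and with the sex-linked score (0.0156). Scalings moved the median of all genes by at most 0.025 on the log2 scale. No paired analysis was possible because the replicate numbers follow accession order and the titles of the groups share a single number.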
